A study of Caenorhabditis elegans with 9 samples.

Results

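C-type lectin genes of Caenorhabditis elegans, named clec with a number, encode proteins with a C-type lectin-like domain. The genes described here are all protein-coding rows of the deposited gene table whose public name in the worm genome build WBcel235 is clec followed by a number. They number 235 of the 28749 genes in the table, and 1 further numbered gene was not analysed here. The genes lie on chromosomes V (85), IV (50), II (48), I (35), III (14) and X (3), and 23 rows of clec pseudogenes were left out.

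C-type lectin-like domains take their name from sugar-binding animal proteins that need calcium, although many members of the family bind other ligands or no known ligand. In worms many of these proteins are secreted, and many of their genes are expressed in the intestine, where the animal meets the bacteria it eats. Sets of them are induced by particular pathogens, so they are widely used as readouts of innate immunity, and different infections induce different members. Others are expressed in the germ line, epidermis or nervous system, and the function of most is not known.

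Whole animals of 3 strains were compared, with 3 libraries of poly(A) RNA per strain. WLZ3 carries the integrated transgene wlzIs3, human LRRK2 with the G2019S change under the worm snb-1 promoter. WLZ1 carries wlzIs1, human wild-type LRRK2 under the same promoter, and N2 is the Bristol wild type with no transgene. The snb-1 promoter drives expression in all neurons, and both transgenes also carry lin15(+). LRRK2 is a protein kinase whose G2019S form is overactive and causes inherited Parkinson's disease. All animals were kept at 20 °C on Escherichia coli OP50, and no stage, age or sex was available from the labels. Each strain is 1 integrated line, so the form of LRRK2 and the line cannot be told apart. The labels do not state whether libraries of a strain came from separate cultures, and the p-values therefore cover the spread between these libraries, which could be technical. In RNA from whole animals, fewer cells of a type and less RNA per cell cannot be told apart.

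Values are FPKM, read fragments scaled by gene length and library size. Library totals recovered from the values were 44994283 to 51035220 reads in WLZ3, 50132425 to 53336536 in WLZ1 and 38128736 to 49302680 in N2. Of 235 lectins, 230 were detected in some library, and 5 had 0 in all 9 (clec-59, clec-130, clec-176, clec-191 and clec-216). For a gene with 1 kb of exons, 3 read pairs in a library equalled 0.112 to 0.157 FPKM, the limit that a count of 0 allows for counting error only. A gene was tested where it reached 1 FPKM in at least 3 libraries, with limma on log2(FPKM + 1). It was called at a Benjamini-Hochberg adjusted p under 0.05 over all 14862 genes tested. This filter kept 114 lectins. The other 121 comprised 109 under 1 FPKM in every library and 12 that reached 1 FPKM in 1 or 2 libraries, and no change is reported for them. Differences are on the log2(FPKM + 1) scale, which understates changes of genes near 0. Folds are ratios of mean FPKM, given as a description.

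The summed level of all 235 lectins was 5311, 5432 and 5416 FPKM in WLZ3, 5663, 5804 and 5658 FPKM in WLZ1 and 5559, 4949 and 5317 FPKM in N2. The 5 most abundant genes, clec-87, clec-63, clec-88, clec-91 and clec-50, held 62.4% to 67.7% of this sum in every library. The number of lectins at 1 FPKM or more was 82, 78 and 82 in WLZ3, 106, 101 and 99 in WLZ1 and 83, 84 and 84 in N2. The WLZ1 libraries therefore held more lectins at this level than any library of the other 2 strains.

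In WLZ3 against N2, 40 of the 114 tested lectins were called, beside 36% of all genes tested. Of the lectins 21 were higher, 18.4%, beside 13.3% of all genes, and 19 were lower, 16.7%, beside 22.7%. Their median difference was −0.02 on the log2 scale, the same as over all genes tested. In WLZ1 against N2, 73 were called, beside 67.6% of all genes. Here 39 lectins were higher, 34.2%, beside 26.6% of all genes, and 34 were lower, 29.8%, beside 41.1%. Their median difference was 0.04, against −0.13 over all genes, and it includes lectins that passed the filter only through WLZ1. With a filter at a mean of 5 FPKM the lectin median was −0.137, against 0.022 over all genes. Without WLZ1 replicate 1, 2 or 3 it was −0.136, −0.138 and −0.14, against −0.162, −0.125 and −0.154. In WLZ3 against WLZ1, 68 were called, beside 42.1% of all genes. Of these 32 were higher, 28.1% of those tested, beside 29.6% of all genes, and 36 were lower, 31.6%, beside 12.6%. Their median was 0.11, against 0.10 over all genes. The contrasts against N2 share the N2 libraries. Changes of at least 2-fold on the log2(FPKM + 1) scale were counted over the same 114 lectins. They were 5 up and 3 down in WLZ3 against N2, where 1.08% and 1.81% of all genes changed by as much. They were 30 up and 8 down in WLZ1 against N2, where the figures for all genes were 4.03% and 15.1%. In WLZ3 against WLZ1 they were 7 up and 26 down, beside 4.82% and 2.13% of all genes. Part of the 30 and of the 26 are lectins that passed the filter only through WLZ1, described below. The 2-fold counts were not made without those lectins, so they do not show an excess of lectins.

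Scaling moved part of these counts. Under median-of-ratios scaling, which shifted the median of all genes in WLZ1 against N2 to 0.04, 48 lectins were higher and 24 lower, so that 66.7% of the called lectins were higher, against 53.4% without it. Quantile normalization, with a median of all genes of 0.07, gave 57 higher and 18 lower, or 76% higher. For WLZ3 against WLZ1 the share higher was 47.1% as deposited, 35.4% (23 of 65) under median-of-ratios scaling and 31.7% (19 of 60) under quantile normalization. Shares over all genes under these scalings are not given. The lectin counts also include those that passed the filter only through WLZ1, so they do not show an excess of lectins in either direction. In WLZ3 against N2, the number higher fell to 13 without N2 replicate 2 and to 13 without N2 replicate 3, and the total called fell to 26 without N2 replicate 3. Without WLZ1 replicate 1, 2 or 3, the number higher in WLZ1 against N2 was 16, 12 and 14, and the number lower in WLZ3 against WLZ1 was 9, 9 and 12, because lectins that reach 1 FPKM in the WLZ1 libraries alone then leave the filter. In WLZ3 against WLZ1, 21 were higher without WLZ3 replicate 3.

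Of the tested lectins, 7 were higher in both strains than in N2 (clec-43, clec-73, clec-85, clec-91, clec-117, clec-160 and clec-223), and 18 were lower in both. None was called in opposite directions by limma, and at an unadjusted p under 0.05 in both contrasts the number was also 0. Of the others, 14 were higher in WLZ3 alone, 1 was lower in WLZ3 alone, 32 were higher in WLZ1 alone, 16 were lower in WLZ1 alone and 26 were called in neither. These joint counts were not made over all genes tested, and the contrasts against N2 share the N2 libraries. Whether they differ from those of other genes was not tested. Of the 32 higher in WLZ1 alone, 31 were also lower in WLZ3 than in WLZ1. These 31 include all but clec-117 of the 24 lectins described next, which passed the filter only through WLZ1. For those lectins the direction follows from the filter and is a description. Of the 14 higher in WLZ3 alone, 9 were also higher in WLZ3 than in WLZ1.

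Of the tested lectins, 24 were at 1 FPKM or more in every WLZ1 library and under 1 FPKM in all 6 libraries of WLZ3 and N2. This rule was chosen after the values were seen, and these genes entered the test only through WLZ1. Their directions, standard errors and p-values, here and below, are therefore a description only. They made up 21.1% of tested lectins, against 1.45% of all tested genes, where 215 genes met the same rule. Genes that met the matching rule for WLZ3 numbered 18, with 0 lectins among them, and for N2 numbered 226, with 2 lectins, clec-199 and clec-229. These 2 lectins entered the test only through N2. Their lower calls against N2, which stay in every count of lower lectins, are therefore a description as well. Without the 24, 15 of 90 tested lectins were higher in WLZ1 than in N2, 16.7%, beside 25.5% of all genes left by the same rule, and 34 were lower, 37.8%, beside 41.7%. In WLZ3 against WLZ1, 32 of the 90 were then higher, 35.6%, beside 30%, and 12 lower, 13.3%, beside 11.3%.

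The highest of the 24 was clec-197 (chromosome IV 17345553–17346699), at 0.2, 0.702 and 0.773 FPKM in WLZ3, 38.2, 28.9 and 28.7 FPKM in WLZ1 and 0.552, 0.671 and 0.48 FPKM in N2. Every WLZ1 library stood far above all others, which did not exceed 1 FPKM. The difference in WLZ1 against N2 was 4.38 ± 0.17 (SE, limma adjusted p = 9.43e-07), a 56.3-fold higher mean, and in WLZ3 against WLZ1 it was −4.41 (adjusted p = 1.44e-06). The WLZ3 and N2 libraries overlapped, and that contrast was not called.

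Next came clec-94 (chromosome I 11146448–11148318), at 0, 0.449 and 0.283 FPKM in WLZ3, 20.9, 13.4 and 15.4 FPKM in WLZ1 and 0, 0.338 and 0.117 FPKM in N2. In reads recovered from these values, 0, 14 and 10 came from WLZ3, 773, 465 and 567 from WLZ1 and 0, 11 and 4 from N2. One library each of WLZ3 and N2 was therefore at 0, and the groups did not overlap with WLZ1. The difference was 3.92 in WLZ1 against N2 (limma adjusted p = 1.71e-06) and −3.81 in WLZ3 against WLZ1 (adjusted p = 4.3e-06). The gene clec-137 (chromosome II 4617152–4618090) stood at 0.111, 0.171 and 0.1 FPKM in WLZ3, 15.5, 11.6 and 12 FPKM in WLZ1 and 0.0672, 0.0545 and 0.312 FPKM in N2. Its mean in WLZ1 was 90.3-fold that in N2, with a difference of 3.61 (limma adjusted p = 9.43e-07).

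The same shape held for clec-219 (chromosome V 8318435–8322867), at 0, 0.597 and 0.287 FPKM in WLZ3, 14, 10.4 and 10.1 FPKM in WLZ1 and 0.256, 0.312 and 0.0495 FPKM in N2. It also held for the neighbours clec-207 and clec-208 on chromosome V. clec-207 (chromosome V 2096072–2097272) stood at 0, 0.245 and 0.351 FPKM in WLZ3, 8.7, 8.19 and 6.39 FPKM in WLZ1 and 0.0723, 0.176 and 0.0838 FPKM in N2, and clec-208 (chromosome V 2097953–2099158) at 0.121, 0.124 and 0.0545 FPKM in WLZ3, 10.7, 7.88 and 6.3 FPKM in WLZ1 and 0.073, 0.118 and 0.113 FPKM in N2. Each of these 3 genes was low in all 6 libraries of WLZ3 and N2. Their differences in WLZ1 against N2 were 3.37, 2.97 and 3.05 for clec-219, clec-207 and clec-208 (limma adjusted p 1.76e-06 to 2.96e-06). In WLZ3 against WLZ1 they were −3.29, −2.87 and −3.05.

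clec-157 (chromosome III 4843434–4844427) was at 0.477, 0.403 and 0.761 FPKM in WLZ3, 9.52, 7.54 and 7.86 FPKM in WLZ1 and 0.612, 0.606 and 0.552 FPKM in N2, and clec-136 (chromosome II 4615574–4616543) at 0.108, 0.332 and 0.0732 FPKM in WLZ3, 6.56, 4.35 and 4.89 FPKM in WLZ1 and 0.196, 0.212 and 0 FPKM in N2. The difference in WLZ1 against N2 was 2.54 for clec-157 and 2.45 for clec-136 (limma adjusted p = 1.66e-06 and 5.51e-06). The remaining 16 of the set, clec-99, clec-138, clec-232, clec-134, clec-95, clec-135, clec-141, clec-96, clec-92, clec-104, clec-263, clec-133, clec-107, clec-217, clec-117 and clec-151, reached between 1.15 and 6.5 FPKM in WLZ1. Over the 24, no WLZ3 library exceeded 0.835 FPKM and no N2 library exceeded 0.887 FPKM. Of the 24, clec-117 was the only one also called in WLZ3 against N2, at 0.835, 0.285 and 0.503 FPKM in WLZ3, 1.63, 1.54 and 1.27 FPKM in WLZ1 and 0, 0.0683 and 0 FPKM in N2, a difference of 0.58 (limma adjusted p = 0.0187). It was not called without N2 replicate 3 (adjusted p 0.0573). By chromosome, 8 of the 24 were on II, 7 on I, 6 on V, 2 on III, 1 on IV and 0 on X.

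**Figure D1:**
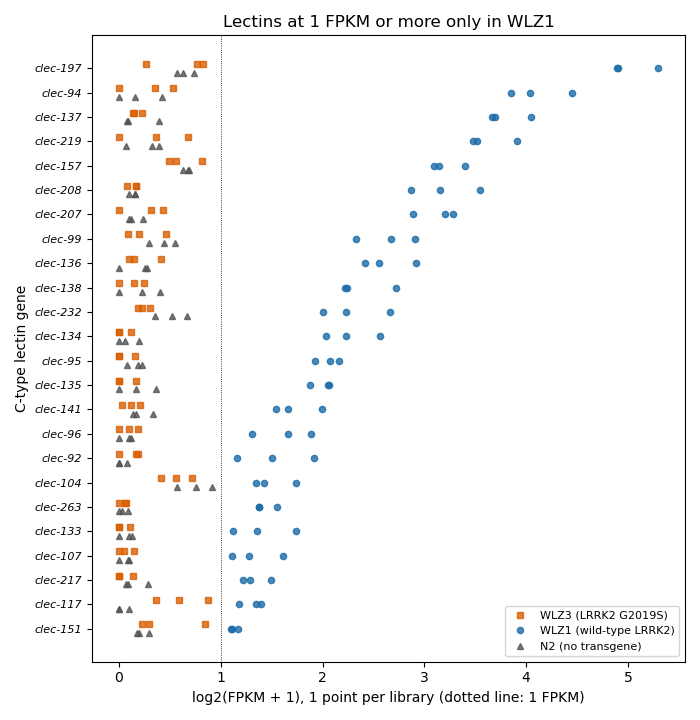
Level of the 24 lectins at 1 FPKM or more in every WLZ1 library and under 1 FPKM in all others, 1 point per library, as log2(FPKM + 1); genes are ordered by their mean in WLZ1. The dotted line marks 1 FPKM, all WLZ1 points lie to its right (1.15 to 38.2 FPKM), and all WLZ3 and N2 points lie to its left.

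Summed over the 24, the level was 3.80, 5.28 and 4.81 FPKM in WLZ3, 173, 129 and 129 FPKM in WLZ1 and 4.07, 5.65 and 4.20 FPKM in N2. WLZ1 replicate 1 was the highest WLZ1 library for 21 of them. The summed FPKM of 42 sperm genes, mostly major sperm protein genes, was 742, 96.7 and 240 in WLZ3, 1198, 952 and 1048 in WLZ1 and 83.5, 32.4 and 14.7 in N2. Of 34 tested sperm genes, 28 were higher in WLZ3 than in N2, all 34 were higher in WLZ1 than in N2, and 25 were lower in WLZ3 than in WLZ1, beside 13.3%, 26.6% and 12.6% of all genes. The low lectin sums in WLZ3 and N2 follow from the rule that chose the 24. The summed level of 22 genes known from males was 92.1, 87.4 and 102 FPKM in WLZ3, 129.9, 120.2 and 114 in WLZ1 and 112, 119.3 and 121 in N2, with WLZ1 and N2 overlapping. Of these, pkd-2 and lov-1, polycystin genes of male sensory neurons, were near 0 in all 9 libraries, pkd-2 at 0.0189, 0 and 0.0341 FPKM in WLZ3, 0.204, 0.13 and 0.0817 in WLZ1 and 0.0684, 0.074 and 0.0529 in N2. Of the 10 tested male genes, 0% were higher and 10% lower in WLZ3 against N2, beside 13.3% and 22.7% of all genes. In WLZ1 against N2, 20% were higher and 40% lower, beside 26.6% and 41.1%. In WLZ3 against WLZ1, 40% were higher and 20% lower, beside 29.6% and 12.6%. Scaling moved these counts, given here as higher and lower in the same order of contrasts. They were 0 and 1, 3 and 4, and 4 and 2 of 9 tested under median-of-ratios scaling. Under quantile normalization they were 2 and 1, 5 and 2, and 2 and 3 of 10 tested. Of 22 tested oocyte and embryo genes, 12 were higher in WLZ3 than in N2 (54.5%, beside 13.3% of all genes). All 22 were higher in WLZ1 than in N2, beside 26.6%, and 16 were lower in WLZ3 than in WLZ1 (72.7%, beside 12.6%). The part of germ line content in the lectin values was not tested.

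In clec-73, clec-79 and clec-123, which are outside the 24, WLZ3 replicate 1 exceeded 1 FPKM. clec-73 (chromosome IV 3954030–3956195) was at 1.93, 0.645 and 0.765 FPKM in WLZ3, 3.39, 3.4 and 3.12 FPKM in WLZ1 and 0.497, 0.237 and 0.226 FPKM in N2. clec-79 (chromosome IV 3973349–3975721) was at 1.66, 0.197 and 0.304 FPKM in WLZ3, 2.24, 2.07 and 1.71 FPKM in WLZ1 and 0.203, 0.0942 and 0.0674 FPKM in N2, and clec-123 (chromosome II 3114234–3116762) at 1.34, 0.338 and 0.468 FPKM in WLZ3, 2.43, 1.7 and 2.22 FPKM in WLZ1 and 0.541, 0.208 and 0.0661 FPKM in N2. In all 3 genes WLZ1 was highest, and WLZ3 replicate 1 stood above the other WLZ3 libraries. These genes were named after their values were seen, with WLZ3 replicate 1 above 1 FPKM, so this order of libraries is a description. In WLZ1 against N2 they differed by 1.71, 1.42 and 1.30 (limma adjusted p = 0.000114, 0.00139 and 0.000916 for clec-73, clec-79 and clec-123). Without the WLZ1 libraries these genes would not have passed the filter, so these differences and p-values are a description too. They remain in the counts made without the 24. In WLZ3 against N2, clec-73 was higher by 0.64 (adjusted p = 0.0424), a call lost without any 1 of WLZ3 replicate 1 or WLZ1 replicate 1, 2 or 3 or N2 replicate 2 or 3 (adjusted p 0.0565 to 0.117) and under no filter or quantile normalization (adjusted p 0.0742 to 0.0773).

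Lectins higher in both strains included clec-223 and clec-85. clec-223 (chromosome V 11273148–11278161) was at 13.5, 14.1 and 13.9 FPKM in WLZ3, 11.5, 11.7 and 10.6 FPKM in WLZ1 and 3.06, 3.42 and 4.07 FPKM in N2. Each strain stood above N2 with no overlap, and replicates were close together. The mean was 3.94-fold that of N2 in WLZ3 (difference 1.72 ± 0.09 SE, limma adjusted p = 1.89e-05) and 3.2-fold in WLZ1 (1.45 ± 0.09, adjusted p = 3.83e-06). The difference of WLZ3 against WLZ1 was 0.28 (adjusted p = 0.0358), a call lost without any 1 of WLZ3 replicate 1, 2 or 3 or WLZ1 replicate 1, 2 or 3 (adjusted p 0.0555 to 0.105) and under no filter, median-of-ratios scaling, quantile normalization or the replicate block (adjusted p 0.0529 to 0.707). Its upstream neighbour on the same strand, clec-222 (chromosome V 11271351–11272467), went the other way, at 45.4, 54.8 and 54.5 FPKM in WLZ3, 45.8, 55.5 and 42 FPKM in WLZ1 and 88.5, 67.7 and 75.2 FPKM in N2. All 6 transgenic libraries lay below the 3 N2 libraries, with a difference of −0.57 in WLZ3 and −0.68 in WLZ1 (limma adjusted p = 0.00991 and 0.0012); clec-222 was named as the neighbour of clec-223.

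clec-85 (chromosome IV 2850886–2855456) is a known reporter of the PMK-1 p38 kinase pathway and is induced by Pseudomonas aeruginosa. It was at 193, 199.8 and 167 FPKM in WLZ3, 122, 144 and 124 FPKM in WLZ1 and 97.8, 86.4 and 91.2 FPKM in N2. The 3 groups did not overlap, in the order WLZ3, WLZ1, N2. The mean was 186 ± 17.4 FPKM in WLZ3, 130.0 ± 12.3 in WLZ1 and 91.8 ± 5.74 in N2 (SD, n = 3 each). The differences were 1.01 for WLZ3 against N2, 0.50 for WLZ1 against N2 and 0.52 for WLZ3 against WLZ1 (limma adjusted p = 0.000369, 0.00086 and 0.00194). Exons of clec-85 overlap those of Y54G2A.40 on the same strand, so reads there could belong to either.

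The largest rise in WLZ3 against N2 was that of clec-209 (chromosome V 2351676–2352932), at 6.52, 6.36 and 5.3 FPKM in WLZ3, 2.71, 0.627 and 1.05 FPKM in WLZ1 and 0, 2.05 and 0.888 FPKM in N2. WLZ3 was above every library of the other groups, and the WLZ1 and N2 libraries overlapped widely. The difference was 1.97 ± 0.40 against N2 and 1.60 ± 0.40 against WLZ1 (SE, limma adjusted p = 0.00728 and 0.0126), and the second call was lost under a pseudocount of 0.1 (adjusted p 0.0987).

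clec-71 (chromosome IV 3937458–3939979), induced in worms by Staphylococcus aureus, was at 9.57, 6.22 and 9.04 FPKM in WLZ3, 3.03, 2.48 and 1.88 FPKM in WLZ1 and 2.51, 2.48 and 1.74 FPKM in N2. WLZ3 was 3.69-fold above N2 and 3.36-fold above WLZ1, with no overlap (differences 1.51 and 1.41, limma adjusted p = 0.00113 and 0.000561). WLZ1 and N2 overlapped (0.09, adjusted p = 0.677). The adjacent gene clec-174 (chromosome IV 3940259–3941708) was at 4.58, 3.36 and 3.91 FPKM in WLZ3, 1.67, 1.03 and 1.16 FPKM in WLZ1 and 1.77, 1.74 and 1.43 FPKM in N2, with differences of 0.90 against N2 and 1.12 against WLZ1 (limma adjusted p = 0.00296 and 0.000526).

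clec-86 (chromosome X 7139891–7140566), 1 of the 3 lectins on the X chromosome, was at 7.13, 5.71 and 6.93 FPKM in WLZ3, 3.19, 2.83 and 2.01 FPKM in WLZ1 and 2.1, 3.44 and 1.9 FPKM in N2. WLZ3 was higher by 1.15 against N2 and by 1.05 against WLZ1 (limma adjusted p = 0.00315 and 0.0025), although its exons overlap alh-10 on the opposite strand and the labels do not say whether counting used the strand. clec-173 (chromosome IV 3266404–3267681) was at 54.9, 52.9 and 46.7 FPKM in WLZ3, 26.5, 31.9 and 27.7 FPKM in WLZ1 and 33.9, 26.8 and 26 FPKM in N2, and clec-258 (chromosome V 19788440–19789385) at 22.7, 16.3 and 20.5 FPKM in WLZ3, 9.11, 11 and 11.7 FPKM in WLZ1 and 13.6, 10.7 and 9.21 FPKM in N2. In both genes WLZ3 lay above all other libraries, and WLZ1 overlapped N2. WLZ3 was 1.78-fold above N2 for clec-173 and 1.77-fold for clec-258 (limma adjusted p = 0.0017 and 0.00724). Against WLZ1 the folds were 1.79 and 1.87 (adjusted p = 0.000676 and 0.00351).

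**Figure D2:**
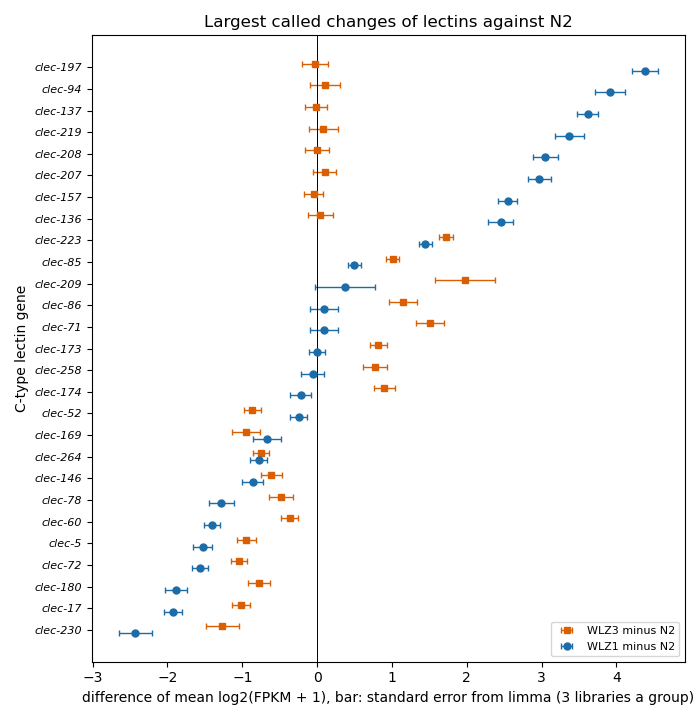
Differences of mean log2(FPKM + 1) against N2 for the lectins with the largest called changes, squares for WLZ3 minus N2 and circles for WLZ1 minus N2, with limma standard errors (3 libraries a group). The 8 genes at the top rise in WLZ1 (2.45 to 4.38) with WLZ3 near 0, a middle block including clec-71 and clec-86 rises in WLZ3 alone, and the genes at the bottom fall in both strains, further in WLZ1 for clec-5, clec-17, clec-60, clec-72, clec-78, clec-180 and clec-230.

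Among the 18 lectins lower in both strains, clec-199 and clec-229 passed the filter only through N2, so their direction against N2 is a description. By the direct test, 9 of the 18 were lower in WLZ1 than in WLZ3 (clec-5, clec-17, clec-42, clec-60, clec-72, clec-78, clec-180, clec-229 and clec-230). For clec-42 that call, with WLZ3 above WLZ1 by 0.46 (adjusted p = 0.0238), was lost without any 1 of WLZ3 replicate 2 or WLZ1 replicate 1 or 3 (adjusted p 0.0632 to 0.0754) and under quantile normalization (adjusted p 0.164), and clec-229 left the filter under median-of-ratios scaling. clec-230 (chromosome V 15347847–15349144) fell furthest, at 3.47, 1.94 and 2.03 FPKM in WLZ3, 0.242, 0.773 and 0.607 FPKM in WLZ1 and 5.89, 9.41 and 6.72 FPKM in N2. The 3 groups did not overlap, with WLZ3 between the others. The difference against N2 was −1.27 in WLZ3 and −2.43 in WLZ1 (limma adjusted p = 0.00396 and 2.07e-05), a mean 2.96-fold lower in WLZ3 and 13.6-fold lower in WLZ1. WLZ3 was above WLZ1 by 1.16 (adjusted p = 0.0035).

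clec-17 (chromosome I 12430028–12431464) was at 1.86, 1.57 and 2.23 FPKM in WLZ3, 0.564, 0.39 and 0.622 FPKM in WLZ1 and 4.6, 4.78 and 5.04 FPKM in N2. Its replicates were tight and its groups did not overlap. It was 2.55-fold lower in WLZ3 than in N2 and 9.15-fold lower in WLZ1 (limma adjusted p = 0.00101 and 3.67e-06). clec-180 (chromosome IV 7568893–7573766) was at 5.23, 4.21 and 4.66 FPKM in WLZ3, 1.53, 1.48 and 1.88 FPKM in WLZ1 and 10.9, 8.54 and 7.06 FPKM in N2, 1.88-fold and 5.43-fold lower than N2 in WLZ3 and WLZ1 (limma adjusted p = 0.00569 and 1.03e-05).

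clec-72 (chromosome IV 3944816–3947362) was at 2.69, 2.19 and 2.56 FPKM in WLZ3, 1.62, 1.29 and 1.33 FPKM in WLZ1 and 6.35, 6.49 and 5.61 FPKM in N2, and clec-5 (chromosome III 4881888–4883606) at 7.56, 6.58 and 6.39 FPKM in WLZ3, 4.58, 3.51 and 4.67 FPKM in WLZ1 and 13.2, 16.5 and 12.7 FPKM in N2. In each, N2 lay above all transgenic libraries and WLZ3 above WLZ1. Differences against N2 for clec-72 were −1.04 in WLZ3 and −1.57 in WLZ1 (limma adjusted p = 0.000667 and 5.98e-06), and for clec-5 −0.94 and −1.53 (adjusted p = 0.00163 and 1.34e-05). WLZ3 exceeded WLZ1 by 0.53 in clec-72 and 0.58 in clec-5 (adjusted p = 0.00487 and 0.00661), the second being lost under quantile normalization (adjusted p 0.139). clec-78 (chromosome IV 3989102–4014235) was at 4.44, 5.52 and 5.48 FPKM in WLZ3, 3.32, 1.82 and 2.59 FPKM in WLZ1 and 6.59, 8.03 and 8.1 FPKM in N2. It was lower than N2 with a difference of −1.28 in WLZ1 (limma adjusted p = 0.000131) and with a difference of −0.48 in WLZ3 (adjusted p = 0.0445), the WLZ3 call being lost without any 1 of WLZ3 replicate 1, 2 or 3 or WLZ1 replicate 3 or N2 replicate 2 or 3 (adjusted p 0.0585 to 0.133) and under a pseudocount of 0.1, a pseudocount of 0.5, no filter, the filter at a mean of at least 5 FPKM, quantile normalization or the replicate block (adjusted p 0.0515 to 0.218).

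In 3 further genes the strains lay below N2 but did not differ from each other past the threshold. clec-264 (chromosome V 20847702–20850701) was at 6.05, 5.91 and 7.53 FPKM in WLZ3, 6.14, 6.94 and 5.76 FPKM in WLZ1 and 10.5, 12.3 and 11.8 FPKM in N2, lower with a difference of −0.75 in WLZ3 and −0.78 in WLZ1 (limma adjusted p = 0.00209 and 0.000212). The WLZ1 call was lost under quantile normalization (adjusted p 0.0511), and its exons overlap fkb-6 on the opposite strand. clec-146 (chromosome II 13590641–13593774) was at 13.7, 12.8 and 15.1 FPKM in WLZ3, 9.54, 13.6 and 11.8 FPKM in WLZ1 and 18.2, 22.4 and 25.1 FPKM in N2, lower with a difference of −0.61 and −0.86 in WLZ3 and WLZ1 (limma adjusted p = 0.011 and 0.000569). clec-169 (chromosome IV 1261161–1264622) was at 10.2, 6.82 and 10.1 FPKM in WLZ3, 12.6, 10.8 and 9.8 FPKM in WLZ1 and 14.9, 16.9 and 23.7 FPKM in N2, lower with a difference of −0.95 and −0.67 (adjusted p = 0.00648 and 0.0109), with the WLZ1 call lost under quantile normalization (adjusted p 0.155). For these 3 genes WLZ3 and WLZ1 differed by 0.04, 0.25 and −0.28 (adjusted p = 0.797, 0.183 and 0.259 for clec-264, clec-146 and clec-169). clec-52 (chromosome IV 8167164–8168760) was the 1 lectin lower in WLZ3 alone, at 7.28, 6.53 and 6.16 FPKM in WLZ3, 12.8, 9.17 and 10.6 FPKM in WLZ1 and 14, 12.2 and 12.7 FPKM in N2. WLZ3 lay below every other library, with a difference of −0.87 against N2 and −0.62 against WLZ1 (limma adjusted p = 0.00152 and 0.00307).

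Lectins with a published role in defence did not move as 1 group. Of clec-60, clec-61, clec-70 and clec-71, known to be induced by Gram-positive bacteria such as Staphylococcus aureus or Microbacterium nematophilum, clec-71 was higher in WLZ3 alone, as above. clec-60 (chromosome II 10480043–10481874) was at 1.89, 1.73 and 1.55 FPKM in WLZ3, 0.406, 0.201 and 0.379 FPKM in WLZ1 and 2.5, 2.64 and 2.4 FPKM in N2. WLZ1 lay far below the other groups, and WLZ3 lay between. WLZ1 was 7.64-fold lower than N2 and WLZ3 was 5.25-fold higher than WLZ1 (limma adjusted p = 1.14e-05 and 0.000231). WLZ3 was lower than N2 with a difference of −0.37 (adjusted p = 0.0328), a call lost without any 1 of WLZ3 replicate 2 or 3 or N2 replicate 1, 2 or 3 (adjusted p 0.0571 to 0.101) and under a pseudocount of 0.1, a pseudocount of 0.5, quantile normalization or the replicate block (adjusted p 0.0534 to 0.245). Exons of clec-60 overlap another annotated gene on the same strand. clec-70 (chromosome IV 3932708–3936307) was at 3.81, 4.59 and 3.36 FPKM in WLZ3, 2.13, 1.75 and 3.67 FPKM in WLZ1 and 3.81, 4.59 and 4.3 FPKM in N2, and WLZ1 lay below N2 with a difference of −0.61 (limma adjusted p = 0.0183), a call lost without any 1 of WLZ1 replicate 1 or 2 or N2 replicate 2 (adjusted p 0.058 to 0.0618) and under quantile normalization (adjusted p 0.716), and WLZ3 against N2 gave −0.09 (adjusted p = 0.718). clec-61 reached at most 0.231 FPKM in any library and was not tested.

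Beside clec-85, clec-67 (chromosome IV 3922165–3924515) also depends on PMK-1. It was at 11.6, 9.92 and 12.7 FPKM in WLZ3, 9.13, 11.2 and 10.4 FPKM in WLZ1 and 9.33, 10.1 and 12.9 FPKM in N2, with all 3 groups overlapping and no call (adjusted p 0.397 to 0.683 by limma). Its difference in WLZ1 against N2 was −0.06 as deposited but turned to 0.41 under quantile normalization, with an adjusted p of 0.0179.

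The genes clec-4, clec-41 and clec-42 are tied to defence against Bacillus thuringiensis. clec-4 (chromosome II 12578331–12581113) was at 3.73, 3.25 and 3.61 FPKM in WLZ3, 2.7, 3.11 and 2.94 FPKM in WLZ1 and 5.6, 5.09 and 4.69 FPKM in N2, lower with a difference of −0.44 in WLZ3 and −0.64 in WLZ1 (limma adjusted p = 0.0101 and 0.000371), and both calls were lost under quantile normalization (adjusted p 0.215 and 0.577). clec-42 (chromosome V 18191412–18194168) was at 0.868, 1.04 and 0.717 FPKM in WLZ3, 0.3, 0.434 and 0.344 FPKM in WLZ1 and 1.92, 1.39 and 1.28 FPKM in N2. WLZ1 lay below N2 with a difference of −0.89 (adjusted p = 0.000401). In WLZ3 it was lower with a difference of −0.43 (adjusted p = 0.0375), a call lost without any 1 of WLZ3 replicate 1 or 3 or WLZ1 replicate 1 or 3 or N2 replicate 1, 2 or 3 (adjusted p 0.0526 to 0.104) and under a pseudocount of 0.1, median-of-ratios scaling, quantile normalization, the replicate block or a fit of the 2 groups alone (adjusted p 0.0511 to 0.148). clec-41 (chromosome V 13134903–13138101) was at 37.4, 49.7 and 45.4 FPKM in WLZ3, 37.7, 48.8 and 36.1 FPKM in WLZ1 and 36.2, 35.4 and 37.6 FPKM in N2; the groups overlapped, and no contrast was called (adjusted p 0.124 to 0.487 by limma).

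clec-39 and clec-49 affect survival on Serratia marcescens. clec-49 (chromosome V 19748961–19751226) was at 27.1, 28.4 and 28.3 FPKM in WLZ3, 23.2, 23.4 and 19.7 FPKM in WLZ1 and 29.7, 27.8 and 36.3 FPKM in N2, lower in WLZ1 than in N2 with a difference of −0.48 (limma adjusted p = 0.0023). WLZ3 exceeded WLZ1 by 0.33 (adjusted p = 0.0268), a call lost without any 1 of WLZ3 replicate 2 or 3 or WLZ1 replicate 3 (adjusted p 0.0658 to 0.0858) and under no filter, median-of-ratios scaling, quantile normalization or the replicate block (adjusted p 0.0504 to 0.139). clec-39 and clec-38, a lectin gene tied to axon growth through the netrin receptor UNC-40, reached at most 0.346 FPKM in any library and were not tested.

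**Figure D3:**
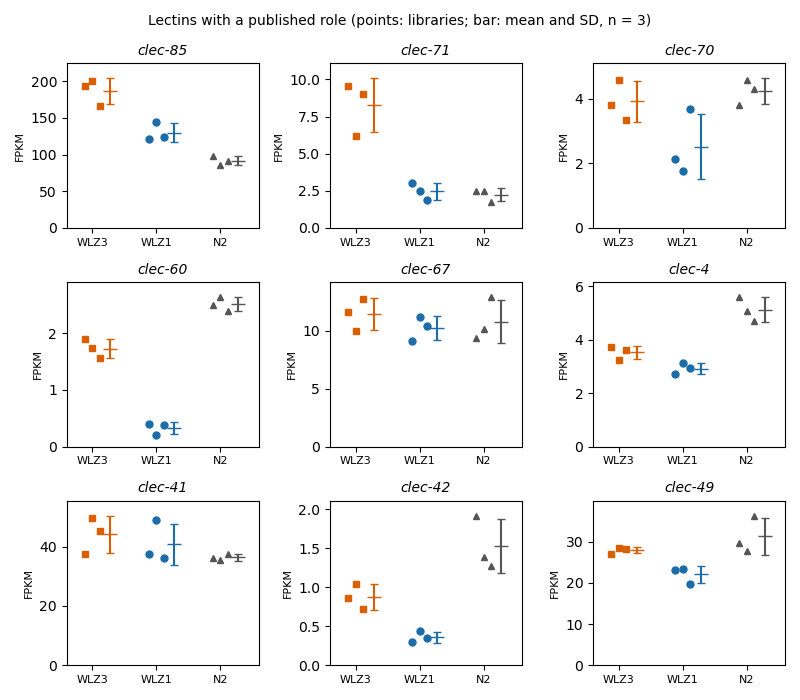
FPKM of 9 lectins with a published role, 1 point per library, beside the mean and SD (n = 3); each panel has its own scale from 0. clec-85 steps down in the order WLZ3, WLZ1, N2, clec-71 is high in WLZ3 (6.22 to 9.57), clec-60 is low in WLZ1 (0.201 to 0.406), and clec-67 and clec-41 overlap between groups.

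The 5 most abundant lectins differed between strains by at most 0.41 on the log2 scale. clec-87 (chromosome I 10184462–10185520) was at 1633, 1650.5 and 1634 FPKM in WLZ3, 1836, 1804 and 1996 FPKM in WLZ1 and 1579, 1438 and 1475 FPKM in N2. WLZ1 was highest, by 0.33 against N2 (limma adjusted p = 0.00145), and WLZ3 lay below WLZ1 with a difference of −0.20 (adjusted p = 0.0335), a call lost without any 1 of WLZ3 replicate 1, 2 or 3 or WLZ1 replicate 1 or 3 (adjusted p 0.0651 to 0.0998) and under no filter, the replicate block or a fit of the 2 groups alone (adjusted p 0.0504 to 0.0683). clec-91 (chromosome I 9126140–9127101) was at 422, 447 and 424 FPKM in WLZ3, 505, 535 and 495 FPKM in WLZ1 and 391, 362 and 399 FPKM in N2, higher in WLZ1 than in N2 by 0.41 (limma adjusted p = 0.000146). In WLZ3 it was higher by 0.17 (adjusted p = 0.037), a call lost without any 1 of WLZ3 replicate 1, 2 or 3 or WLZ1 replicate 1 or N2 replicate 2 (adjusted p 0.0563 to 0.13) and under no filter or the replicate block (adjusted p 0.0586 to 0.0782). clec-88 (chromosome II 6365722–6367002) was at 505, 499.7 and 517 FPKM in WLZ3, 546, 560.4 and 589 FPKM in WLZ1 and 516, 438 and 457 FPKM in N2, higher in WLZ1 than in N2 by 0.27 (limma adjusted p = 0.00477). These 3 genes share exon sequence with annotated neighbours, clec-87 with iars-2 and clec-91 with ZK858.8 on the opposite strand and clec-88 with ctsa-4.1 on the same strand.

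Of the other two, clec-50 (chromosome V 19752399–19755368) was at 325, 324 and 367 FPKM in WLZ3, 313, 343 and 269 FPKM in WLZ1 and 395, 335 and 426 FPKM in N2, lower in WLZ1 than in N2 with a difference of −0.32 (limma adjusted p = 0.0262), with 1 WLZ1 library above the lowest N2 library. That call was lost without any 1 of WLZ1 replicate 1 or 3 or N2 replicate 1 or 3 (adjusted p 0.051 to 0.0949) and under median-of-ratios scaling, quantile normalization or the replicate block (adjusted p 0.05 to 0.356). clec-63 (chromosome II 12895638–12897446) was at 554, 553 and 574 FPKM in WLZ3, 489, 553 and 479 FPKM in WLZ1 and 585, 517 and 569.9 FPKM in N2; no contrast was called (limma adjusted p 0.0985 to 0.919). Around all 235 lectins, 26 overlapped exons of another gene on the opposite strand and 11 on the same strand.

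Lectin genes that lie side by side did not always move together. Members within 20 kb of each other formed 20 clusters of at least 3 genes, 106 lectins in all, and 5 of these clusters held no tested gene. On chromosome I at 11142110–11158833, 4 of 7 lectins (clec-94, clec-95, clec-96 and clec-99) belonged to the set of 24. Between them clec-97 was at 22.3, 19.8 and 22.1 FPKM in WLZ3, 17.2, 25.7 and 16.7 FPKM in WLZ1 and 18.8, 15.8 and 19.3 FPKM in N2, with overlapping groups and no call, and its exons overlap clec-98 on the opposite strand. On chromosome II at 4615574–4621750, clec-136, clec-137 and clec-138 belonged to the set. The fourth gene there, clec-139, was at 1.69, 0.826 and 0.893 FPKM in WLZ3, 1.26, 0.861 and 1.22 FPKM in WLZ1 and 0.881, 1.07 and 1.58 FPKM in N2, with overlapping groups and no call.

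On chromosome IV at 2823746–2855456, clec-85 is the last of 5 lectins, and all 4 tested ones were higher in WLZ3 than in WLZ1 as deposited. clec-80 was at 12.9, 12 and 11.4 FPKM in WLZ3, 7.19, 6.65 and 7.6 FPKM in WLZ1 and 8.36, 7.27 and 8.37 FPKM in N2, higher in WLZ3 by 0.54 against N2 and 0.68 against WLZ1 (limma adjusted p = 0.00275 and 0.000436). clec-84 was at 47.1, 49.3 and 47.3 FPKM in WLZ3, 36.2, 41.7 and 32 FPKM in WLZ1 and 41.1, 36.9 and 39 FPKM in N2, higher in WLZ3 by 0.39 against WLZ1 (adjusted p = 0.00757), which was lost under median-of-ratios scaling (adjusted p 0.0663). clec-83 was at 82.2, 66.9 and 75.8 FPKM in WLZ3, 62.5, 62.1 and 63.6 FPKM in WLZ1 and 79.9, 76.1 and 75.3 FPKM in N2, lower in WLZ1 than in N2 with a difference of −0.29 (limma adjusted p = 0.00408), a call lost under median-of-ratios scaling (adjusted p 0.208). It was higher in WLZ3 than in WLZ1 by 0.25 (adjusted p = 0.0174), a call lost without WLZ3 replicate 3 (adjusted p 0.0562) and under median-of-ratios scaling (adjusted p 0.189), and WLZ3 against N2 was not called.

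The second cluster on chromosome IV, at 3922165–4014235, holds 12 lectins from clec-67 to clec-78 and was mixed. Of 8 tested, clec-71 and clec-174 were higher in WLZ3 alone, clec-72 and clec-78 were lower in both strains, clec-73 and clec-79 were highest in WLZ1, clec-70 was lower in WLZ1 and clec-67 was not called. The clec-62 to clec-66 cluster on chromosome II at 12893062–12906644 had 4 tested genes, of which 1, clec-66, was lower in WLZ1 than in N2 with a difference of −0.43 (limma adjusted p = 0.0144). It was not called without N2 replicate 3 (adjusted p 0.0564) and under median-of-ratios scaling or quantile normalization (adjusted p 0.0931 to 0.785), and the sign turned positive under quantile normalization (0.0445). Genes in these clusters outside the naming rule were chosen for their position after their values were seen.

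**Figure D4:**
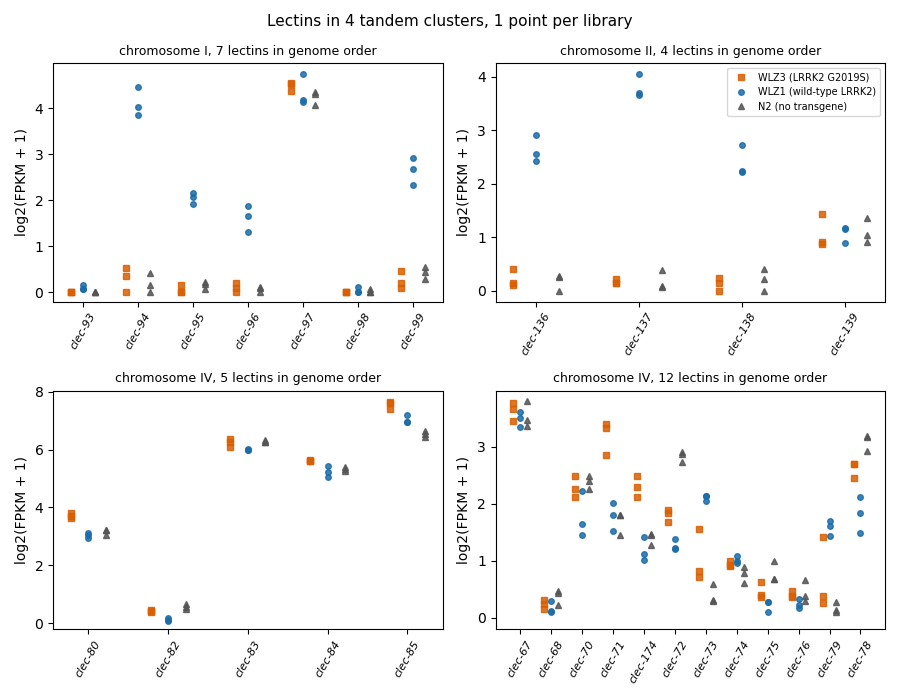
log2(FPKM + 1) of lectins in 4 tandem clusters, in genome order along the x axis, 1 point per library. In the 2 upper panels most lectins are high in WLZ1 only, while clec-97 and clec-139 overlap between groups; lower left, clec-85 and clec-80 are highest in WLZ3; lower right, clec-71 and clec-174 are highest in WLZ3, clec-72 and clec-78 in N2, and clec-73 and clec-79 in WLZ1.

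Of 40 tested regulators of worm immunity, 2 were higher (5%) and 11 lower (27.5%) in WLZ3 against N2, beside 13.3% and 22.7% of all genes, with a median of −0.12. In WLZ1 against N2, 6 were higher (15%) and 22 lower (55%), beside 26.6% and 41.1%, with a median of −0.29. In WLZ3 against WLZ1, 13 were higher (32.5%) and 1 lower (2.5%), beside 29.6% and 12.6%, with a median of 0.18. Scaling moved these counts: higher and lower were 5 and 9, 12 and 16, and 12 and 9 in the same order of contrasts under median-of-ratios scaling, and 4 and 6, 9 and 12, and 7 and 3 under quantile normalization. In the p38 pathway that controls clec-85, the kinase gene pmk-1 was at 16.4, 16.9 and 15.9 FPKM in WLZ3, 15.3, 12.9 and 15.1 FPKM in WLZ1 and 18, 22.1 and 19.7 FPKM in N2. It was lower with a difference of −0.26 in WLZ3 and −0.44 in WLZ1 (limma adjusted p = 0.0439 and 0.00175). The WLZ3 call was lost without any 1 of WLZ3 replicate 1, 2 or 3 or WLZ1 replicate 1 or 3 or N2 replicate 2 or 3 (adjusted p 0.051 to 0.15) and under no filter, median-of-ratios scaling, quantile normalization or the replicate block (adjusted p 0.0557 to 0.147), and the WLZ1 call under quantile normalization (adjusted p 0.129). Its adaptor tir-1 was at 11.6, 12.9 and 11.8 FPKM in WLZ3, 10.6, 7.57 and 8.95 FPKM in WLZ1 and 14.6, 16.7 and 15.5 FPKM in N2, lower with a difference of −0.34 and −0.73 in WLZ3 and WLZ1 (adjusted p = 0.0386 and 0.000349), with the WLZ3 call lost without any 1 of WLZ3 replicate 1, 2 or 3 or WLZ1 replicate 3 or N2 replicate 2 or 3 (adjusted p 0.051 to 0.126) and under no filter, quantile normalization or the replicate block (adjusted p 0.066 to 0.132). atf-7, the transcription factor downstream of PMK-1, was at 116, 118.5 and 116 FPKM in WLZ3, 112.6, 100.1 and 116.5 FPKM in WLZ1 and 108, 112 and 108 FPKM in N2 and was not called in any contrast. These 3 genes were chosen for their role after the values were seen.

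egl-5, a Hox gene needed for the induction of clec-60 by Staphylococcus aureus, was at 4.46, 5.45 and 4.69 FPKM in WLZ3, 2.72, 1.35 and 2.6 FPKM in WLZ1 and 5.06, 7.29 and 6.73 FPKM in N2. WLZ1 lay below N2 with a difference of −1.21, and WLZ3 lay above WLZ1 by 0.89 (limma adjusted p = 0.000481 and 0.00625). tpa-1, a protein kinase C gene, was at 12.7, 11.8 and 13.6 FPKM in WLZ3, 8.16, 7.29 and 7.86 FPKM in WLZ1 and 15.6, 22.3 and 20.3 FPKM in N2, and ikb-1, an inhibitor-like gene of the NF-kappa-B family, was at 8.34, 7.78 and 8.52 FPKM in WLZ3, 5.4, 4.73 and 5.18 FPKM in WLZ1 and 10.9, 13.6 and 13.2 FPKM in N2. tpa-1 was lower in both strains (−0.56 in WLZ3 and −1.21 in WLZ1, limma adjusted p = 0.00791 and 3.11e-05), as was ikb-1 (−0.55 and −1.15, adjusted p = 0.00378 and 1.32e-05).

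Of 49 tested genes for other immune effectors, such as lysozymes, saposin-like proteins and galectins, 7 were higher (14.3%) and 17 lower (34.7%) in WLZ3 against N2, beside 13.3% and 22.7% of all genes. In WLZ1 against N2, 5 were higher (10.2%) and 29 lower (59.2%), beside 26.6% and 41.1%, and in WLZ3 against WLZ1, 26 were higher (53.1%) and 4 lower (8.16%), beside 29.6% and 12.6%. Under median-of-ratios scaling the counts were 8 and 15, 12 and 22, and 19 and 6, and under quantile normalization 9 and 13, 9 and 23, and 18 and 5. The lysozyme gene lys-3 was at 1.74, 1.27 and 1.45 FPKM in WLZ3, 0.502, 0.569 and 1.12 FPKM in WLZ1 and 8.28, 11.7 and 13 FPKM in N2, lower in both strains (−2.25 and −2.79, limma adjusted p = 0.000332 and 5.39e-06 in WLZ3 and WLZ1). The invertebrate lysozyme gene ilys-3 was at 4.83, 2.61 and 5.55 FPKM in WLZ3, 1.59, 0.727 and 1.22 FPKM in WLZ1 and 7.54, 11.3 and 15.7 FPKM in N2, also lower in both (−1.22 and −2.49, adjusted p = 0.0126 and 8.4e-05). dod-24, a gut gene that responds to infection, was at 147, 169.8 and 161 FPKM in WLZ3, 72.1, 80.7 and 73.4 FPKM in WLZ1 and 33.8, 40.2 and 37.8 FPKM in N2, with the 3 groups apart in the same order as for clec-85 (2.07 and 1.00 against N2, adjusted p = 1.9e-06 and 9.57e-06).

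Of 22 tested markers of the intestine, where many lectins are expressed, 6 were lower (27.3%) in WLZ3 against N2, beside 22.7% of all genes. In WLZ1 against N2, 1 was higher and 13 lower (59.1%), beside 26.6% and 41.1%, and in WLZ3 against WLZ1, 9 were higher (40.9%) and 3 lower (13.6%), beside 29.6% and 12.6%. Under median-of-ratios scaling the counts were 1 and 5, 4 and 9, and 7 and 4, and under quantile normalization 1 and 6, 2 and 9, and 7 and 3. Their summed level was 3933, 4324 and 3983 FPKM in WLZ3, 4360, 4582 and 3887 in WLZ1 and 5026, 4646 and 5060.3 in N2. elt-2, the factor that sets intestinal fate, was at 8.47, 9.63 and 8.99 FPKM in WLZ3, 7.58, 8.17 and 6.05 FPKM in WLZ1 and 7.69, 8.03 and 8.93 FPKM in N2 and was not called in any contrast. The intestinal filament gene ifb-2 was at 41.3, 32.1 and 36.7 FPKM in WLZ3, 19, 16.9 and 18.8 FPKM in WLZ1 and 55.1, 64.9 and 57.5 FPKM in N2, lower in both strains (−0.68 in WLZ3 and −1.64 in WLZ1, limma adjusted p = 0.00197 and 3.03e-06). ifp-1, also an intestinal filament gene, was at 6.77, 5.14 and 5.85 FPKM in WLZ3, 1.61, 1.47 and 1.52 FPKM in WLZ1 and 11.8, 14.6 and 12.7 FPKM in N2 and was lower too (−1.02 and −2.46, adjusted p = 0.000834 and 1.35e-06). The part of these markers in the falls of lectins was not tested. Markers of epidermis (14 lower of 20 in WLZ3, 17 in WLZ1), pharynx (13 and 15 of 15) and neurons (16 and 17 of 18) were also lower than in N2 more often than all genes (22.7% and 41.1%) as a share, and their part was not tested either.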

How the data were processed

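RNA of whole animals was sequenced in 9 libraries, 3 each of WLZ3, WLZ1 and N2. The authors deposited 1 table of FPKM values per gene, and all 9 value columns were matched to samples by name (0 unmatched). The submitters' processing notes name fastp 0.23.2, then HISAT2 2.2.1, and for counting featureCounts 2.0.3, with build WBcel235. Neither the formula behind FPKM nor the use of strand in counting is stated in these notes, so values of genes overlapping on opposite strands are uncertain. Positions and names came from the RefSeq table of WBcel235, which named 28744 genes. FPKM times exon length (Ensembl release 115) gave whole reads within 0.01 in every library for 225 of the 230 lectins above 0, from which library totals were recovered.

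Differences were tested with limma-trend (limma 3.58.1 in R 4.3.3) on log2(FPKM + 1) over the 9 libraries together, 1 mean for each strain, on genes at 1 FPKM or more in at least 3 libraries. P-values were two-sided and Benjamini-Hochberg adjusted over 14862 genes, and calls were made under 0.05. A run of the procedure on simulated data changed a small set of genes in WLZ3 alone. Far more genes were called here, so that run does not check these calls. Named genes were the 8 largest rises and 8 largest falls per contrast among called lectins whose groups did not overlap and whose higher group averaged 2 FPKM or more, 12 lectins with a published role, the 5 most abundant, and up to 3 called members of each other list. Members and lists were chosen with earlier results of these data known. The alternatives tried were a pseudocount of 0.1 or 0.5, dropping the filter, filtering at a mean of 5 FPKM, median-of-ratios scaling, quantile normalization, a replicate block, fits of the 2 groups compared alone and leaving out each library. Sequence features and protein identity, planned as descriptions, were not analysed here.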

Additional observations from a re-analysis of the deposited data

How the results depend on the processing

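The tally covers 132 gene and contrast pairs with a test in the text or picked by the naming rule, 112 of them lectin pairs, and 3322 values under the alternatives. Of these, 3086 kept their direction and their side of the threshold, 190 lost the call, 18 gained one and 28 changed sign, all but 1 (clec-66) where no call was made as deposited. The sign changes were clec-4 (WLZ3 against WLZ1, −0.12, quantile), clec-41 (WLZ3 against WLZ1, −0.022, median-of-ratios), clec-63 (WLZ1 against N2, 0.057, median-of-ratios), clec-67 (WLZ1 against N2, 0.1155 median-of-ratios and 0.41 quantile; WLZ3 against WLZ1, −0.10 quantile) and clec-70 (WLZ3 against N2, 0.13, quantile). Leaving out 1 library gave −0.0071 to 0.2065 for clec-67 and −0.0436 to 0.0457 for clec-63 in WLZ3 against N2, and −0.1513 to 0.0622 for clec-67 and −0.0255 to 0.2163 for clec-71 in WLZ1 against N2. Single values in these ranges were −0.0076 for clec-63 without WLZ3 replicate 3, 0.0085 for clec-67 without WLZ1 replicate 1 and −0.0254 for clec-71 without N2 replicate 3, the same with the genes chosen on all 9 libraries. For clec-264 (WLZ3 against WLZ1) the sign turned under median-of-ratios scaling (−0.0819) and quantile normalization (−0.2959). Leaving out 1 library gave −0.0578 to 0.1023, with −0.0134 without WLZ1 replicate 3. For clec-66 (WLZ1 against N2) quantile normalization gave 0.0445. Among other lectins called lower in WLZ1 against N2, clec-53 and clec-178 also turned sign there.

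With a filter at a mean of 5 FPKM, 47 lectins were tested, and the called counts were 20 (10 higher, 10 lower) in WLZ3 against N2, 26 (8 and 18) in WLZ1 against N2 and 21 (15 and 6) in WLZ3 against WLZ1. Quantile normalization gave 18 lower in WLZ1 against N2 and 19 higher in WLZ3 against WLZ1. Leaving out 1 library gave 26 to 38 calls in WLZ3 against N2 (13 to 23 higher, 13 to 19 lower), 42 to 75 in WLZ1 against N2 (12 to 43 higher, 25 to 33 lower) and 33 to 69 in WLZ3 against WLZ1 (21 to 33 higher, 9 to 37 lower). Without a WLZ1 library the 24 lectins leave the filter, and the number higher in WLZ1 is 16, 12 and 14 without replicates 1, 2 and 3. With the genes chosen on all 9 libraries, an alternative chosen after seeing the data, the ranges were 27 to 39 (13 to 24, 14 to 19), 63 to 75 (36 to 43, 27 to 34) and 52 to 71 (21 to 34, 31 to 37). WLZ3 against WLZ1 had 21 higher without WLZ3 replicate 3.

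Deviations of same-numbered libraries from their strain means correlated at −0.145 to 0.244, beside −0.256 to 0.173 for other-numbered libraries. The same-numbered values were all positive for N2 with WLZ3 (0.035 to 0.244) and all negative for pairs with WLZ1. With 3 libraries per strain these values cannot decide whether the numbers pair samples, and the main fit assumed no pairing. With a replicate block the counts were 34 (19 higher, 15 lower), 71 (38 and 33) and 62 (27 and 35) for WLZ3 against N2, WLZ1 against N2 and WLZ3 against WLZ1. Genes under about 1 FPKM rest on few reads, and 121 lectins were not tested at this depth. Groups of 3 libraries limit all tests.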

Other observations

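Of the 215 genes of the whole table at 1 FPKM or more in every WLZ1 library and under 1 FPKM in all others, 24 were C-type lectins, of 114 tested. The scl genes, which encode secreted SCP/TAPS-domain proteins, gave 4 of 11 tested, try genes 3 of 11, fipr genes 3 of 22, srlf genes 3 of 21 and nas genes 3 of 27. Among these classes, each with at least 3 such genes, scl and try genes lay above the lectins as a share of the genes tested. Classes with fewer such genes did too: nspf genes gave 2 of 2, alg genes 2 of 5 and nspa genes 2 of 6. The ant, comp, decr and icmt classes, with 1 such gene each, also lay above. Genes are grouped by the letters of their name.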
